A study of Mus musculus with 14 samples.

Results

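Kbtbd8, Smpd4, Nlgn2, Neto2, Mgam, Rnase12 and Thg1l were described across 14 expression arrays of mouse hematopoietic progenitor cells (HPCs). The 7 genes had been picked because they rose strongly with N-Myc in these same arrays. The size of that rise, with any p-value given for it, is therefore a description here and not a test. Each had 1 probe set, among 22206 tested probe sets with 19505 distinct gene symbols. The cells were lineage-negative bone marrow cells, selected by magnetic sorting, cultured for 48 h and transduced on retronectin with retrovirus from the packaging line GP+E86. The Ctrl vector (MSCV-IRES-YFP) carried a yellow fluorescent protein alone, and the NMyc vector (MSCV-NMyc-IRES-YFP) carried N-Myc with it. The donor mice were wild type (WT, Polgwt/wt), heterozygous (Het, Polgwt/mut) or homozygous (Hom, Polgmut/mut) for a mutant allele of Polg, whose product replicates mitochondrial DNA. There were 6 groups, with 3 arrays for each of WT-Ctrl and Het-Ctrl and 2 for Hom-Ctrl and for each genotype with NMyc. The labels call the arrays biological replicates but do not tie them to animals, and give no age of the mice, so a p-value reflects only how far these samples spread, which may be technical. The cells were a mixed culture, in which fewer cells of a type and less RNA per cell cannot be told apart.

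N-Myc, encoded by Mycn, is a transcription factor that pairs with MAX and binds short DNA elements called E-boxes, of which CACGTG is the canonical form. Proteins of the MYC family are best known for raising genes of ribosome production and metabolism. The 7 genes come from several fields. Kbtbd8 encodes a substrate adaptor of the CUL3 ubiquitin ligase, Thg1l the enzyme that adds a guanosine to the 5′ end of histidine tRNA, Smpd4 a neutral sphingomyelinase that releases ceramide from sphingomyelin, and Mgam maltase-glucoamylase, which frees glucose from starch fragments at the intestinal brush border. Nlgn2 encodes neuroligin 2, an adhesion protein of inhibitory synapses, Neto2 an auxiliary subunit of kainate-type glutamate receptors, and Rnase12 a member of the RNase A family.

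Because the 7 genes shared a rise with a factor that binds E-boxes, the sequence around their transcription starts was read from RefSeq promoter windows of mouse build GRCm38.p6, from 250 bases before to 50 bases after a start. All 7 matched, with 9 windows in total, since Neto2 and Thg1l each had 2. The search covered 4 motifs on both strands, which were CACGTG, its variant CACGCG, then the form CATGTG, and last the form CATGCG. No match in the windows of these genes overlapped another match. The 4 windows below show the range, from the canonical E-box (Mgam) over 3 and 1 copies of CACGCG (Neto2 and Kbtbd8) to no match (Rnase12). Matches are in capitals, on the strand of the gene, 5′ to 3′.
Mgam, chr6:40628581-40628880, plus strand: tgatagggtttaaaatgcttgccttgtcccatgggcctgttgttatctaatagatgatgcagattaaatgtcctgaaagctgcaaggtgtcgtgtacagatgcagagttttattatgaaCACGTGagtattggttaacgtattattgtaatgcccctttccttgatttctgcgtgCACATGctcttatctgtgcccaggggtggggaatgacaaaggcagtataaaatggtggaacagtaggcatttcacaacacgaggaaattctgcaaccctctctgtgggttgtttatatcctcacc
Neto2, chr8:85700875-85701174, minus strand: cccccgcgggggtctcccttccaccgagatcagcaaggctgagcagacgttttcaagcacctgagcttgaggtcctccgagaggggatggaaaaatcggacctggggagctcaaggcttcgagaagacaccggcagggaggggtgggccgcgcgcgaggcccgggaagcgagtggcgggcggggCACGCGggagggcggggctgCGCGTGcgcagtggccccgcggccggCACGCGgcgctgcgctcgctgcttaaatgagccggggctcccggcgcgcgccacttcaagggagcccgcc
Kbtbd8, chr6:95117630-95117929, plus strand: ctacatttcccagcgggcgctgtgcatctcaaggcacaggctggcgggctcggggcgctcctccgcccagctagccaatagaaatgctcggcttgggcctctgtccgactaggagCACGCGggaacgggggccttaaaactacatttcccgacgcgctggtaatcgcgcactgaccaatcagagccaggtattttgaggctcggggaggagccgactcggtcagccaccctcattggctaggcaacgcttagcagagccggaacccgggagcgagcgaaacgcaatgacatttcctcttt
Rnase12, chr14:51057193-51057492, minus strand: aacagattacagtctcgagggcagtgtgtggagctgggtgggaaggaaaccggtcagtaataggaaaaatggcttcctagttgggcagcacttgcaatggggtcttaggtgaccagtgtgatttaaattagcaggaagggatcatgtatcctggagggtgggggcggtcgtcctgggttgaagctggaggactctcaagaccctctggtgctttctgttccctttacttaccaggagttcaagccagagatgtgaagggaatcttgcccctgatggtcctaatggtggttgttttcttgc
In the Mgam window CACGTG began 131 bases before the start, and a CATGTG match on the opposite strand began 75 bases before it. CACGTG occurred in 1 of the 9 windows, in 7.15% of all 32851 windows of the same length, and in 8.11% of those of genes on the array. CACGCG occurred in 3 of the 9 windows (Kbtbd8 and the second windows of Neto2 and Thg1l), in 9.27% of all windows, and in 12.6% of the 19143 windows of genes on the array. The copies in Neto2 began 66, 46 and 20 bases before the start, and 0.304% of all windows, or 0.418% of those of genes on the array, held at least 3. Any of the 4 motifs occurred in 5 of the 9 windows, in 31.8% of all windows and in 33.5% of those of genes on the array. Neither Nlgn2 nor Rnase12 had one. These matches are letters in a window and say nothing of binding.

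The transduced gene was read first. Mycn lay between 12.15 and 12.38 (log2) in the 6 NMyc arrays and between 7.43 and 7.76 in 7 of the 8 Ctrl arrays. The remaining one, Hom-Ctrl replicate 1, read 9.77, between the vectors, so the main differences that use this array are also given without it. In that array 4 of the 7 genes were lower than in Hom-Ctrl replicate 2, Mgam and Rnase12 were higher, and Thg1l was at the same value. Myc, the relative of Mycn, was lower with N-Myc by 1.32 log2 units. The 3 arrays of the first run of sample codes, which are replicate 1 of each Ctrl group, also read 3.59 to 3.96 for the Y-linked gene Eif2s3y, against 8.23 to 9.78 in the other 11 arrays. That run held no NMyc array. The part of the run, or of donor sex, in the results was not tested as such. Values without that run are given for the averaged rises and for the Hom-Ctrl differences of Mgam, Rnase12 and Nlgn2. All 8 hematopoietic progenitor markers, among them Kit, Cd34 and Spi1, were above the median of the negative control probe sets on all arrays. With N-Myc 1 of the 8 (Lmo2) rose and 3 fell, beside 18.2% rising and 15.5% falling over all probe sets. Those that fell were Ptprc (-1.56), Cd34 (-0.97) and Kit (-0.30). The mean level of the 8 was 10.40 to 10.64 under Ctrl and 10.12 to 10.42 under NMyc.

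With N-Myc every one of the 7 genes was higher, by 1.48 to 2.33 log2 units when the 3 genotypes were averaged. The median over the 7 was 1.89, beside -0.02 over all probe sets. All 7 passed an adjusted p under 0.05 (limma's test with Benjamini-Hochberg adjustment) in that comparison, in which 33.6% of all probe sets passed, 18.2% with a rise and 15.5% with a fall. All 7 rose by at least 1 log2 unit, as did 2.79% of all probe sets. The genes had been picked for rises with N-Myc, in a contrast and past a cut-off that were not stated, so these counts only describe them. The NMyc arrays all lay above the Ctrl arrays for 6 of the 7 genes, as for 10.5% of all probe sets, with Mgam the exception. Ranked by the size of the rise among 22206 probe sets, Kbtbd8 was at 2, Smpd4 at 7, Thg1l at 14, Nlgn2 at 17, Rnase12 at 19, Neto2 at 21 and Mgam at 111, so Mgam was the lowest of the 7 in this ranking. By the rise within Hom alone, Mgam was at 3 and Rnase12 at 1139. Without the first code run the averaged rises were 2.28 for Kbtbd8, 1.91 for Smpd4, 1.89 for Thg1l, 1.73 for Nlgn2, 1.81 for Neto2, 1.55 for Mgam and 1.92 for Rnase12. Each gene was higher with N-Myc in all 5 pairs of arrays that shared a genotype and a code run, by 0.13 for Mgam in 1 pair and by at least 0.77 for the other 6 genes.

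**Figure D1:**
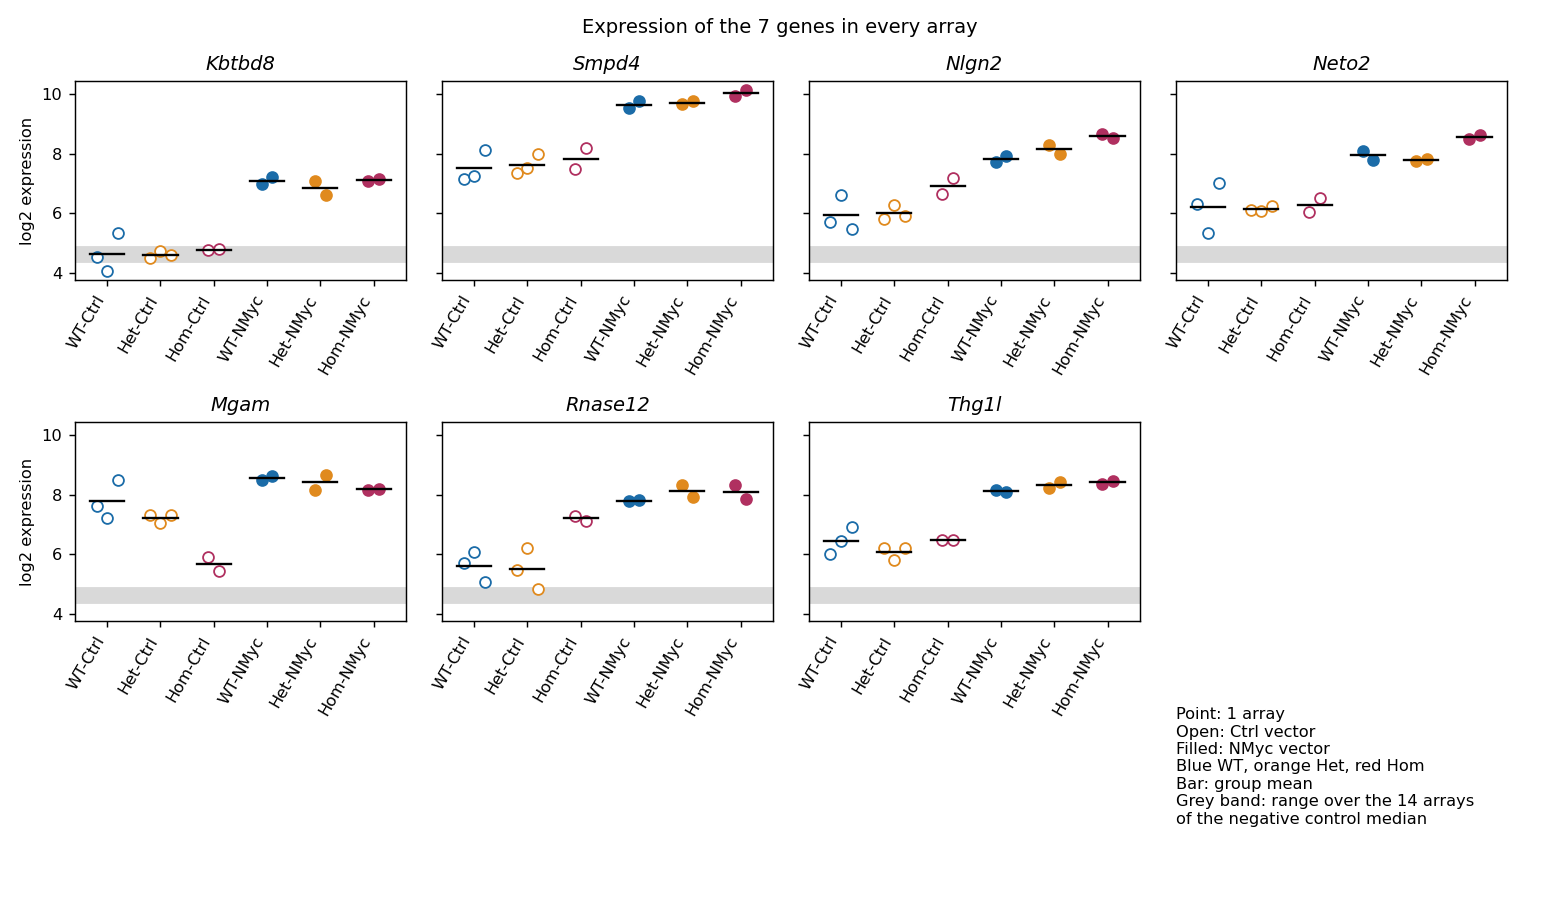
Log2 level of the 7 genes (vertical axes) in each of the 6 groups (horizontal axes), with 1 point per array, open for Ctrl and filled for NMyc, bars at group means and a grey band for the range of the negative control median over arrays. The Ctrl arrays of Kbtbd8 lie in or near the band, Mgam is lowest in Hom-Ctrl, and Rnase12 in Hom-Ctrl lies near the NMyc arrays.

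Kbtbd8 had the largest rise of the 7, from a level at background. Its values were 4.53, 4.07 and 5.35 in WT-Ctrl, 4.50, 4.76 and 4.62 in Het-Ctrl, and 4.77 and 4.80 in Hom-Ctrl. They were 6.98 and 7.21 in WT-NMyc, 7.07 and 6.60 in Het-NMyc, and 7.08 and 7.15 in Hom-NMyc. The vectors were far apart, WT overlapped the other genotypes within each vector, and Hom lay just above Het in both. In 4 of the 8 Ctrl arrays, among them all of Het-Ctrl, the gene was not above the negative control median. The averaged rise was 2.33 ± 0.16 log2 units (SE), and with those 4 arrays put at the negative control median it was at least 4.68-fold. The negative control sets spread widely, and 5 of the 6 NMyc arrays stayed under the 95th percentile of those sets, which lay at 7.15 to 8.0. Against that stricter floor no fold can be given. The rise was 2.44 in WT, 2.33 in Hom, and 2.21 in Het, where all Ctrl arrays were at background. It was 2.32 averaged and 2.31 in Hom without Hom-Ctrl replicate 1.

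Among the relatives and partners of Kbtbd8, the genes of its best known substrates rose, and the core of the ligase did not pass. Nolc1 and Tcof1 encode nucleolar phosphoproteins that assist ribosomal RNA synthesis, and KBTBD8 is known to direct their ubiquitylation in the neural crest. Nolc1 read 6.83 to 7.91 in the Ctrl arrays and 9.26 to 9.55 with N-Myc, and rose by 1.88 ± 0.13 (SE, adjusted p = 2.32e-08, limma). Tcof1 rose by 1.47 ± 0.10 (SE, adjusted p = 1.85e-08, limma). For both, all NMyc arrays lay above all Ctrl arrays. The scaffold Cul3 differed by 0.01 ± 0.09 (SE, adjusted p = 0.964, limma) and its RING partner Rbx1 by 0.02 ± 0.09 (SE, adjusted p = 0.887, limma). Of the 12 measured relatives and partners, 3 rose and 1 fell, with a median of 0.01, beside 18.2% rising and 15.5% falling over all probe sets.

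Smpd4 showed the same step from a level above background. Its values were 7.15, 7.24 and 8.12 in WT-Ctrl, 7.36, 7.53 and 7.99 in Het-Ctrl, and 7.47 and 8.20 in Hom-Ctrl. They were 9.52 and 9.75 in WT-NMyc, 9.64 and 9.76 in Het-NMyc, and 9.93 and 10.12 in Hom-NMyc. The vectors were separated by a gap wider than the range within the NMyc arrays. Averaged over genotypes Smpd4 was 2.13 ± 0.16 (SE) higher, a 4.38-fold difference, and 2.01 higher without Hom-Ctrl replicate 1. The rise was 2.13 (WT), 2.08 (Het) and 2.19 (Hom), and 1.82 in Hom without that array. Hom-NMyc stood above all other NMyc arrays, as for 14.6% of all probe sets, but its difference from WT-NMyc was 0.39 with a 95% interval from -0.25 to 1.03 (adjusted p = 0.757, limma).

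The other genes of sphingomyelin and ceramide turnover moved in both directions. Of 30 measured, 9 rose and 7 fell, with a median of -0.02, beside 18.2% and 15.5% of all probe sets and the same median. Without WT-NMyc replicate 2, Het-NMyc replicate 2 or Hom-NMyc replicate 2, 5 rose. Kdsr, an enzyme of the first steps of sphingoid base synthesis, rose by 0.86 ± 0.12 (SE, adjusted p = 2.69e-05, limma), and the ceramide synthase gene Cers5 by 0.57 ± 0.08 (SE, adjusted p = 5.74e-05, limma). Sgms1, which makes sphingomyelin from ceramide, fell by 1.54 (SE 0.13, adjusted p = 1.35e-07, limma), with 7.97 to 8.80 under Ctrl and 6.35 to 7.35 under NMyc. Asah2, a neutral ceramidase gene, fell by 1.08 (SE 0.12, adjusted p = 2.32e-06, limma). Of the other sphingomyelinase genes, Smpd1 (-0.32, adjusted p = 0.0573), Smpd2 (0.13, adjusted p = 0.359) and Smpd3 (-0.14, adjusted p = 0.356) did not pass limma's test. Smpd5 was lower with N-Myc (-0.69, SE 0.13, adjusted p = 0.000556, limma), and its NMyc arrays all lay below its Ctrl arrays. Without WT-Ctrl replicate 2, Smpd1 passed with a difference of -0.41 (adjusted p = 0.00123, limma).

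Thg1l had the narrowest spread of the 7 in the NMyc arrays. Its values were 6.01, 6.44 and 6.92 in WT-Ctrl, 6.20, 5.80 and 6.20 in Het-Ctrl, and 6.49 in both Hom-Ctrl arrays. They were 8.15 and 8.07 in WT-NMyc, 8.23 and 8.43 in Het-NMyc, and 8.35 and 8.46 in Hom-NMyc. The vectors did not overlap, and WT-Ctrl overlapped the other Ctrl groups, of which Hom lay above Het. Thg1l was 1.94 ± 0.13 (SE) higher on average, a 3.85-fold difference, and 1.95 without Hom-Ctrl replicate 1. By genotype the rise was 1.66 (WT), 2.26 (Het) and 1.91 (Hom), and 1.92 in Hom without that array. The Het rise exceeded the WT rise by 0.61, with a 95% interval from -0.03 to 1.25 (adjusted p = 1, limma).

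In the list around Thg1l most genes rose. Of 43 measured genes of tRNA end processing and modification, 35 rose and 2 fell, with a median of 0.78, beside 18.2% rising and 15.5% falling over all probe sets. Nsun2, a tRNA cytosine methyltransferase, rose by 1.82 ± 0.09 (SE, adjusted p = 1.98e-09, limma), with 8.08 to 8.53 under Ctrl and 9.88 to 10.40 under NMyc. Pus7, a pseudouridine synthase, rose by 1.81 ± 0.13 (SE, adjusted p = 5.24e-08, limma). Hars, the synthetase that charges the tRNA on which THG1L acts, rose by 0.78 ± 0.09 (SE, adjusted p = 3.37e-06, limma), and its mitochondrial counterpart Hars2 by 0.52 ± 0.11 (SE, adjusted p = 0.00142, limma).

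**Figure D2:**
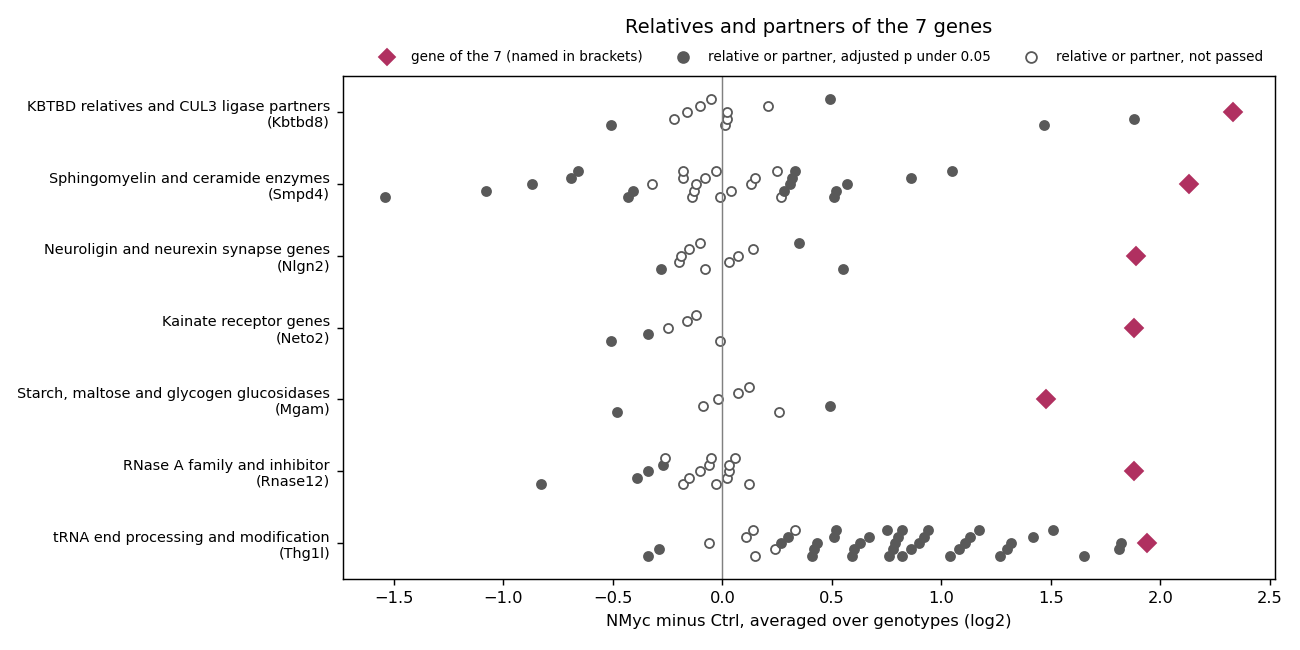
Difference with N-Myc averaged over genotypes (horizontal axis, log2) for the measured relatives and partners of each gene (circles, filled where the adjusted p was under 0.05) and for the gene itself (diamonds). The diamonds stand to the right because those genes were picked for their rise, and the circles of the tRNA row have a median of 0.78.

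Nlgn2 and Neto2 are synaptic genes by reputation. Nlgn2 read 5.70, 6.63 and 5.47 in WT-Ctrl, 5.83, 6.28 and 5.93 in Het-Ctrl, and 6.65 and 7.19 in Hom-Ctrl. It read 7.71 and 7.92 in WT-NMyc, 8.30 and 8.0 in Het-NMyc, and 8.65 and 8.51 in Hom-NMyc. Within each vector the Hom arrays were the highest, and the lowest NMyc array lay 0.51 above the highest Ctrl array. Nlgn2 was 1.89 ± 0.16 (SE) higher on average, a 3.71-fold difference, and 1.80 without Hom-Ctrl replicate 1. By genotype the rise was 1.88 (WT), 2.14 (Het) and 1.66 (Hom), and 1.39 in Hom without that array.

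Neto2 read 6.30, 5.34 and 7.02 in WT-Ctrl, 6.12, 6.08 and 6.24 in Het-Ctrl, and 6.05 and 6.53 in Hom-Ctrl. It read 8.09 and 7.79 in WT-NMyc, 7.74 and 7.83 in Het-NMyc, and 8.50 and 8.63 in Hom-NMyc. The Ctrl groups overlapped, WT-Ctrl being the widest, and Hom-NMyc lay above the other NMyc arrays. Neto2 was 1.88 ± 0.19 (SE) higher on average, a 3.67-fold difference, and 1.80 without Hom-Ctrl replicate 1. By genotype the rise was 1.72 (WT), 1.64 (Het) and 2.27 (Hom), and 2.03 in Hom without that array. The WT value was 1.27 without WT-Ctrl replicate 2 and 2.12 without WT-Ctrl replicate 3.

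The synaptic partners of these 2 genes are likewise set beside the 33.6% of all probe sets that passed. Of 11 measured neuroligin and neurexin synapse genes, 2 rose and 1 fell, with a median of -0.08. Gphn, which encodes the scaffold gephyrin that binds neuroligin 2 and also makes molybdenum cofactor, rose by 0.55 ± 0.10 (SE, adjusted p = 0.000405, limma). The paralogs Nlgn1 (-0.10, adjusted p = 0.611) and Nlgn3 (-0.20, adjusted p = 0.229) did not pass limma's test. Of the other kainate receptor genes 6 were measured, and 0 rose and 2 fell, with a median of -0.20. The paralog Neto1 and the receptor subunits Grik1, Grik2 and Grik3 were not above the negative control median on any array. Of the 2 that fell, Grik1 was thus at background throughout, and Grik5, singled out after its values were seen, read 0.51 lower (SE 0.11, adjusted p = 0.00173, limma). Of 9 neuron markers, 5 were above background, that is the negative control median, on most arrays, and Rbfox3 was above it on 0 arrays. The markers' mean level ranged from 5.33 to 5.47 under Ctrl and from 5.33 to 5.60 under NMyc. These means lay under the 95th percentile of the negative control sets (7.15 to 8.0). Tubb3 rose by 0.48 ± 0.10 (SE, adjusted p = 0.0012, limma) and was named after its value was seen, and the part of such cells in these results was not tested.

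Mgam had the widest spread among Ctrl arrays, 3.03 log2 units, against 0.48 among the NMyc arrays. It read 7.62, 7.21 and 8.49 in WT-Ctrl, 7.33, 7.05 and 7.32 in Het-Ctrl, and 5.93 and 5.45 in Hom-Ctrl. It read 8.49 and 8.62 in WT-NMyc, 8.17 and 8.65 in Het-NMyc, and 8.17 and 8.18 in Hom-NMyc. The Hom-Ctrl arrays were the lowest of all, WT-Ctrl replicate 3 overlapped the NMyc arrays, and among the NMyc groups Het overlapped both WT and Hom, while WT lay above Hom. Its averaged rise was 1.48 ± 0.17 (SE), a 2.79-fold difference, and 1.56 without Hom-Ctrl replicate 1. It was 0.78 (WT), 1.17 (Het) and 2.49 (Hom), and 2.72 in Hom without that array. The WT value was 0.50 without WT-Ctrl replicate 2 and 1.14 without WT-Ctrl replicate 3.

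For Rnase12 it was Hom-Ctrl that stood highest among the Ctrl groups. It read 5.70, 6.07 and 5.07 in WT-Ctrl, 5.48, 6.23 and 4.85 in Het-Ctrl, and 7.29 and 7.13 in Hom-Ctrl. It read 7.77 and 7.81 in WT-NMyc, 8.32 and 7.91 in Het-NMyc, and 8.31 and 7.85 in Hom-NMyc. The Hom-Ctrl arrays stood apart from the other Ctrl arrays and below all NMyc arrays. Rnase12 was 1.88 ± 0.19 (SE) higher on average, a 3.69-fold difference, and 1.91 without Hom-Ctrl replicate 1. By genotype the rise was 2.18 (WT), 2.60 (Het) and 0.87 (Hom), and 0.95 in Hom without that array. The spread was 2.44 among the Ctrl arrays and 0.56 among the NMyc arrays.

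**Figure D3:**
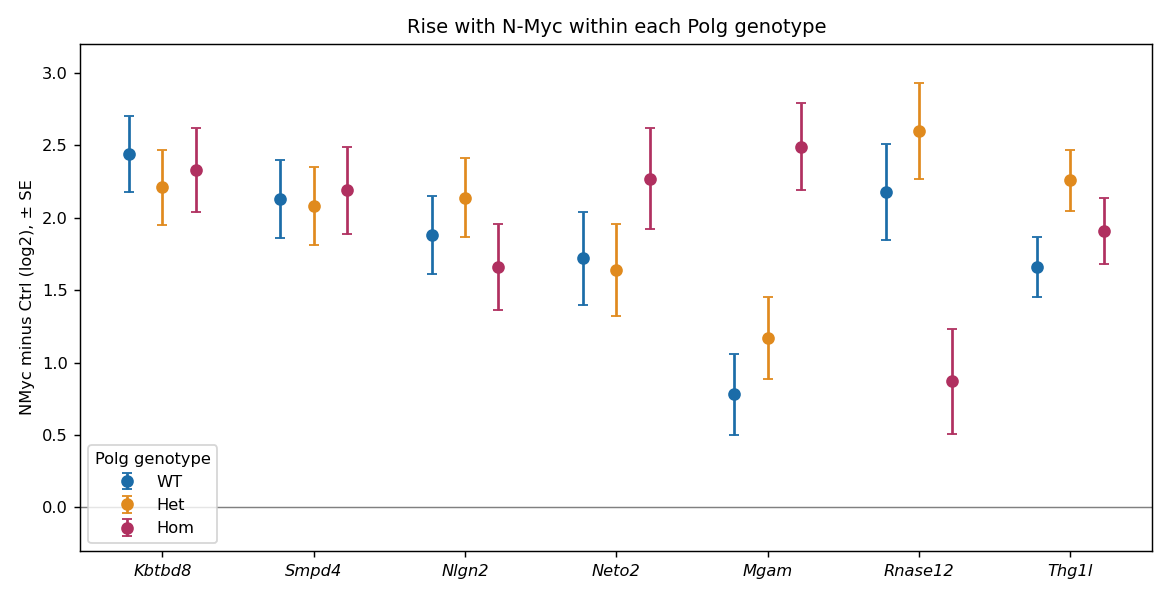
NMyc minus Ctrl (vertical axis, log2) for the 7 genes within WT, Het and Hom, points with bars of 1 SE from the model. The rise of Mgam runs from 0.78 in WT to 2.49 in Hom and that of Rnase12 from 2.60 in Het to 0.87 in Hom, while the other 5 genes lie between 1.64 and 2.44.

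The relatives of Mgam and Rnase12 are set beside 33.6% of all probe sets that passed. Of 7 measured starch, maltose and glycogen glucosidases, 1 rose and 1 fell, with a median of 0.07. These were Gaa, the lysosomal acid glucosidase gene (0.49 ± 0.08 SE, adjusted p = 0.000196, limma), and Ganc (-0.48 ± 0.09 SE, adjusted p = 0.000571, limma), both named after their values were seen. Sis, the closest relative of Mgam, differed by 0.12 ± 0.08 (SE, adjusted p = 0.305, limma) and was above background on 7 of 14 arrays. Of 16 measured genes of the RNase A family and its inhibitor, 0 rose and 4 fell, with a median of -0.08, and 2 fell without Hom-NMyc replicate 2. Rnase6, an RNase of myeloid cells, fell by 0.83 (SE 0.11, adjusted p = 1.56e-05, limma), with 9.55 to 10.18 under Ctrl and 8.74 to 9.22 under NMyc. Of 7 enterocyte markers 0 passed in either direction (limma), at mean levels of 5.26 to 5.44 under Ctrl and 5.20 to 5.45 under NMyc. On most arrays 5 of the 7 were above background, that is the negative control median, Lct and Vil1 on all 14. The defining factor Cdx2 was above it on 1. Under Ctrl Lct averaged 5.85 and Vil1 6.93, both under the 95th percentile of the negative control sets (7.15 to 8.0). Of 7 epididymis and testis markers 0 rose and 1 (Rnase9) fell, at mean levels of 4.59 to 4.89 and 4.62 to 4.85. On most arrays 3 of these 7 (Rnase9, Rnase10 and Prm1) were above background, while Rnase13 and Lcn5 were above it on 0. The means of these 3 also lay under that 95th percentile. The part of such cells was not tested.

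The Polg genotypes were compared within each vector by limma's test, though the same arrays had entered the picking of the genes. With the Ctrl vector, Mgam was lower and Rnase12 higher in Hom than in both other genotypes. In Hom-Ctrl against WT-Ctrl 2 of the 7 genes passed, and 3.91% of all probe sets did (2.03% higher, 1.88% lower). The Hom-Ctrl arrays lay below all other Ctrl arrays for Mgam, as for 8.15% of all probe sets, and above them for Rnase12 and Nlgn2, as for 8.82%. Mgam fell by 2.08 (SE 0.28, adjusted p = 0.0013, limma), a 4.24-fold difference, and Rnase12 rose by 1.60 ± 0.33 (SE, adjusted p = 0.0132, limma), a 3.02-fold difference. In Hom-Ctrl against Het-Ctrl the same 2 genes passed, where 2.40% of all probe sets did (1.34% higher, 1.06% lower). Mgam fell by 1.55 (SE 0.28, adjusted p = 0.00932, limma) and Rnase12 rose by 1.69 ± 0.33 (SE, adjusted p = 0.0136, limma). Both comparisons share the Hom-Ctrl arrays, and the same arrays entered the rises for which the genes were picked. A low Hom-Ctrl level of Mgam therefore also makes its rise larger. Ranked by the rise, Mgam was at 3 within Hom and at 1090 within WT. Its adjusted p-values here, and the count of 2 of the 7, are thus not free of that choice and describe these genes.

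**Figure D4:**
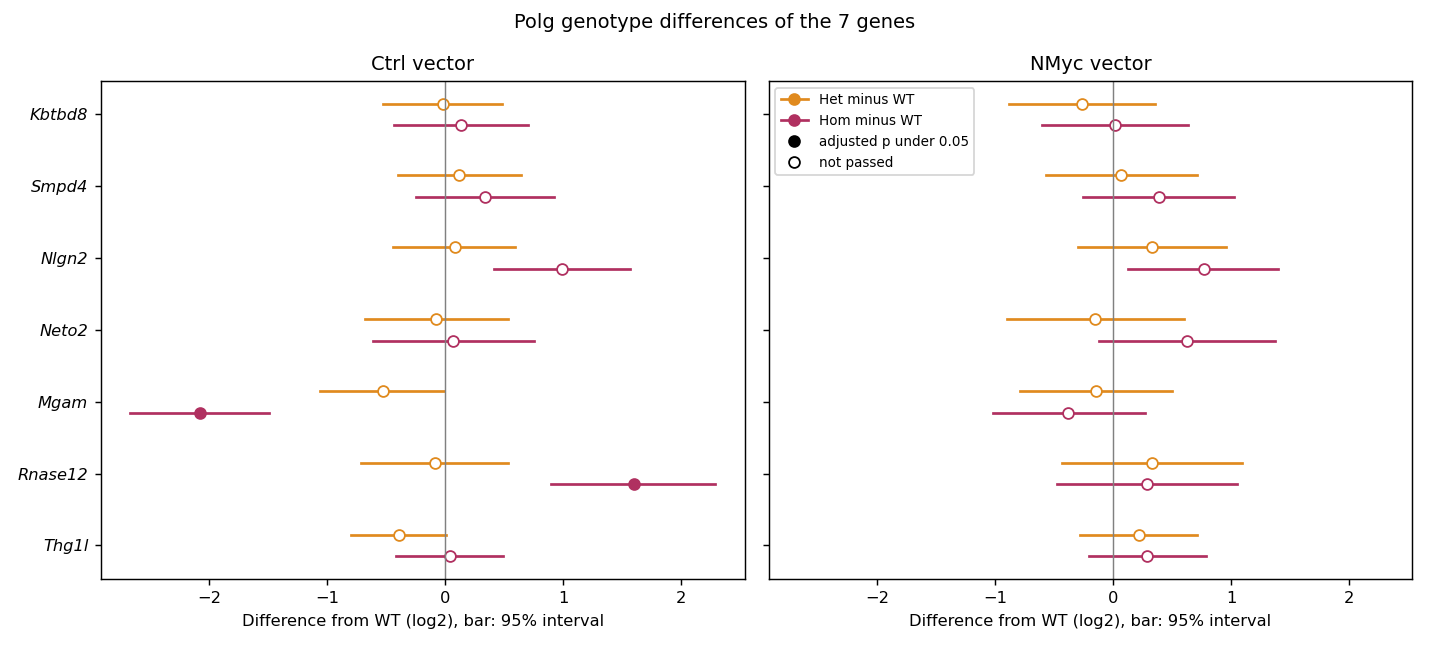
Difference of Het and Hom from WT (horizontal axes, log2, with 95% intervals) for the 7 genes within the Ctrl vector and within the NMyc vector, filled where the adjusted p was under 0.05. Mgam at -2.08 and Rnase12 at 1.60 in Hom-Ctrl are the filled points, and with N-Myc 0 are filled.

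The 2 differences depended unequally on single arrays. Without Hom-Ctrl replicate 1, which leaves 1 Hom-Ctrl array that is assumed to vary like the other groups, Mgam differed from WT-Ctrl by -2.32 (adjusted p = 0.00384, limma) and from Het-Ctrl by -1.78 (adjusted p = 0.019, limma). Rnase12 then no longer passed, at 1.51 against WT-Ctrl (adjusted p = 0.0756, limma) and 1.61 against Het-Ctrl (adjusted p = 0.0717, limma). Without Hom-Ctrl replicate 2, Rnase12 did not pass either (adjusted p = 0.101 and 0.112, limma), nor did Mgam against Het-Ctrl (-1.31, adjusted p = 0.151, limma). Without Het-Ctrl replicate 3, Rnase12 against Het-Ctrl was 1.35 (adjusted p = 0.0554, limma). Within the first run of sample codes, Hom-Ctrl minus WT-Ctrl was -1.69 for Mgam and 1.59 for Rnase12, and within the second run -1.76 and 1.06. Without the first run Mgam differed from WT-Ctrl by -2.40 (adjusted p = 0.011, limma) and from Het-Ctrl by -1.73 (adjusted p = 0.0526, limma). Rnase12 then differed by 1.56 (adjusted p = 0.118, limma) and 1.59 (adjusted p = 0.131, limma).

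Some cell type markers also differed in Hom-Ctrl, where 2.03% of all probe sets were called higher and 1.88% lower than in WT-Ctrl. Of the 8 progenitor markers, 1 (Gata2) was higher than in WT-Ctrl, by 0.61 (adjusted p = 0.0431, limma), and 0 lower. Their mean level was 10.40 to 10.46 in Hom-Ctrl, 10.53 to 10.64 in WT-Ctrl and 10.56 to 10.61 in Het-Ctrl. Of 7 neutrophil markers, 2 (Ltf and Mmp8) were lower than in WT-Ctrl and 0 higher, and their mean level was 11.02 to 11.28 in Hom-Ctrl against 11.66 to 11.80 in WT-Ctrl and 11.74 to 11.88 in Het-Ctrl. Of 5 mast cell markers, 2 were higher and 0 lower, with mean levels of 11.49 to 11.78 in Hom-Ctrl against 11.16 to 11.22 in WT-Ctrl. Of 4 macrophage markers, 1 (Mrc1) was lower than in WT-Ctrl and 0 higher, and 0 passed against Het-Ctrl. Their mean level was 9.05 to 9.99 in Hom-Ctrl, 10.01 to 10.53 in WT-Ctrl and 9.55 to 10.36 in Het-Ctrl. Of 6 fibroblast markers, for the packaging cells, 1 (Thy1) was higher than in WT-Ctrl, and 0 passed against Het-Ctrl. Their mean level was 6.95 to 7.26 in Hom-Ctrl, 6.55 to 7.15 in WT-Ctrl and 6.91 to 7.32 in Het-Ctrl. Of 3 erythroid markers 0 passed, at 5.97 to 5.98 in Hom-Ctrl, 5.81 to 6.21 in WT-Ctrl and 5.93 to 6.21 in Het-Ctrl. Without Hom-Ctrl replicate 1, 2 neutrophil and 2 macrophage markers were lower, 2 mast cell markers higher, and Thy1 did not pass (1.45, adjusted p = 0.187, limma). With N-Myc, 5 of 7 neutrophil, 4 of 4 macrophage, 4 of 5 mast cell, 2 of 6 fibroblast and 0 of 3 erythroid markers fell, and 2, 0, 1, 0 and 0 rose. Over all probe sets 15.5% fell and 18.2% rose. The neutrophil mean was 10.37 to 10.64 in the NMyc arrays, below all Ctrl arrays, where Mgam read 8.17 to 8.65. The part of these cell types in the results for Mgam and Rnase12 was not tested.

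The relatives of Mgam and Rnase12 in Hom-Ctrl were read beside them. Over all probe sets 2.03% were called higher and 1.88% lower in Hom-Ctrl than in WT-Ctrl. Of the 7 glucosidases 1 was higher in Hom-Ctrl than in WT-Ctrl and 0 lower, and the 1 was Gaa (0.80, adjusted p = 0.00521, limma), opposite in sign to Mgam. Of the 16 RNase A family genes 0 passed in either direction. Of the 30 sphingomyelin and ceramide genes 2 were higher and 1 lower, and of the 43 tRNA genes 1 was higher and 0 lower. Without Hom-Ctrl replicate 1, Gaa differed by 0.97 (adjusted p = 0.00707, limma), 1 RNase A family gene was lower, 1 sphingomyelin and ceramide gene was higher and 1 lower, and 0 tRNA genes passed.

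Nlgn2 in Hom-Ctrl stood at the edge of the test. It was higher than in WT-Ctrl by 0.99 (95% interval 0.41 to 1.57, adjusted p = 0.0558, limma) and than in Het-Ctrl by 0.91 (0.33 to 1.49, adjusted p = 0.0971, limma), and so did not pass. The values without Hom-Ctrl replicate 1 were 1.26 (adjusted p = 0.0621, limma) and 1.18 (adjusted p = 0.0897, limma). Without WT-Ctrl replicate 2, the highest of the 3 WT-Ctrl arrays, it passed against WT-Ctrl (1.34, adjusted p = 0.00565, limma) and against Het-Ctrl (0.91, adjusted p = 0.0211, limma). That WT-Ctrl array read 6.63, just under the lower Hom-Ctrl array at 6.65. In code runs 2 and 3 alone, which leave 1 Hom-Ctrl array, Nlgn2 differed by 1.15 from WT-Ctrl and by 1.09 from Het-Ctrl. Over all 22 alternatives the 2 differences ran from 0.72 to 1.34 and from 0.64 to 1.18. Kbtbd8 (0.13, 95% interval -0.43 to 0.70), Smpd4 (0.34, -0.25 to 0.92), Neto2 (0.07, -0.61 to 0.75) and Thg1l (0.04, -0.42 to 0.49) did not pass against WT-Ctrl. With all arrays, a difference of 1 log2 unit lies outside the interval for Smpd4, Neto2 and Thg1l, while Kbtbd8 was at or near background in the Ctrl arrays. Without Hom-Ctrl replicate 1 the differences from WT-Ctrl were 0.70 (Smpd4), 0.31 (Neto2) and 0.03 (Thg1l), with 1 Hom-Ctrl array left. Within the first code run they were 0.32, -0.25 and 0.49, and within the second 0.96, 1.19 and 0.05, so the bound rests on few arrays.

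Het differed from WT in 0 of the 7 genes with the Ctrl vector by limma's adjusted p, as in 0% of all probe sets, while at an unadjusted p under 0.05 there were 1 of the 7 (Mgam) and 935 of all probe sets. Mgam in Het-Ctrl was lower than in WT-Ctrl by 0.53, with a 95% interval from -1.06 to -0.01 (adjusted p = 0.999, limma), so this difference did not pass. Its Ctrl means were 7.77 ± 0.65 in WT and 7.24 ± 0.16 in Het (SD, n = 3 each), and 5.69 ± 0.33 in Hom (SD, n = 2).

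With N-Myc, 0 of the 7 genes differed between any pair of genotypes by limma's adjusted p, as did 0% of all probe sets in each of the 3 pairs. At an unadjusted p under 0.05 there were 0, 1 and 1 of the 7 genes for Het against WT, Hom against WT and Hom against Het, and 576, 1873 and 1093 of all probe sets. The 1 gene was Nlgn2 in Hom against WT (0.77, 95% interval 0.13 to 1.40, adjusted p = 0.523, limma) and Neto2 in Hom against Het (0.78, 0.03 to 1.52, adjusted p = 0.978, limma). Mgam, so far apart in Ctrl, differed between Hom-NMyc and WT-NMyc by -0.38 (95% interval -1.02 to 0.27, adjusted p = 0.769, limma), and Rnase12 by 0.29 (-0.47 to 1.05, adjusted p = 0.864, limma).

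The difference between the N-Myc effects of 2 genotypes was tested as well. Of the 7 genes 0 passed by limma's adjusted p, as did 0% of all probe sets for Het minus WT, 0.0811% for Hom minus WT and 0.0315% for Hom minus Het. At an unadjusted p under 0.05 there were 0, 2 and 2 of the 7, and 730, 1896 and 1537 of all probe sets. The 2 were Mgam and Rnase12. The rise of Mgam was larger in Hom than in WT by 1.71 (95% interval 0.83 to 2.58, adjusted p = 0.165, limma) and than in Het by 1.31 (0.44 to 2.19, adjusted p = 0.448, limma). The rise of Rnase12 was smaller in Hom than in WT by 1.31 (SE 0.48, adjusted p = 0.426, limma) and than in Het by 1.73 (SE 0.48, adjusted p = 0.364, limma). Without Hom-Ctrl replicate 1 the differences were 1.94 and 1.55 for Mgam (adjusted p = 0.168 and 0.385, limma) and -1.23 and -1.65 for Rnase12 (adjusted p = 0.604 and 0.454, limma). All share the Hom-Ctrl arrays with the genotype comparisons above and with the rises for which the genes were picked.

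Genes next to the 7 on their chromosomes were read for comparison. For each, the 3 nearest measured genes on each side were taken from the gene order of RefSeq (GRCm38.p6), 42 in all, of which 6 rose and 6 fell, with a median of -0.05, beside 18.2% rising and 15.5% falling over all probe sets. Suclg2, next to Kbtbd8, which encodes a subunit of succinyl-CoA ligase, rose by 0.57 ± 0.09 (SE, adjusted p = 7.44e-05, limma). Slc25a26, the mitochondrial carrier of S-adenosylmethionine, on the other side of Kbtbd8, rose by 0.51 ± 0.09 (SE, adjusted p = 0.000295, limma). Dnaja2, a chaperone gene beside Neto2, rose by 0.47 ± 0.08 (SE, adjusted p = 0.000186, limma). Rnase6, the third gene from Rnase12, is the one that fell by 0.83, and Rnase11 and Rnase9 on the other side differed by -0.15 (adjusted p = 0.443, limma) and -0.34 (adjusted p = 0.0209, limma).

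**Figure D5:**
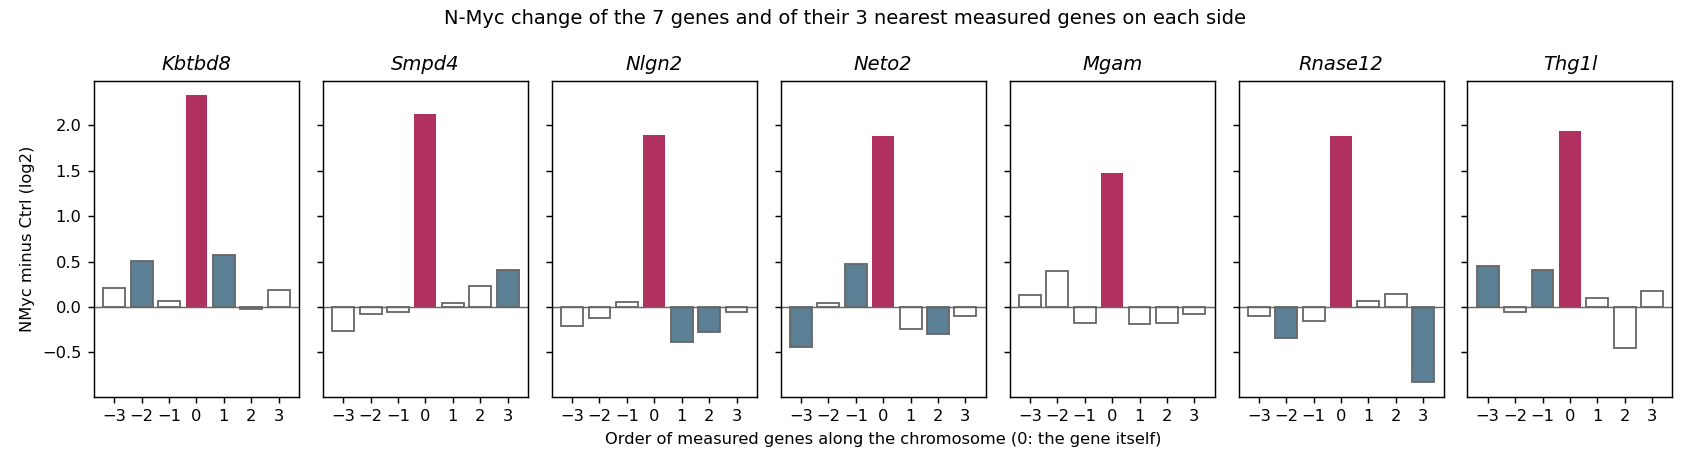
Difference with N-Myc (vertical axes, log2) of each of the 7 genes (position 0) and of the 3 nearest measured genes on each side in chromosomal order, filled blue where the adjusted p was under 0.05. The 7 genes stand at 1.48 to 2.33 and the neighbours that rose at 0.57 or less.

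Clec5a, a receptor gene of myeloid cells and the second gene from Mgam, was singled out after its values were seen. It read 9.41, 9.41 and 10.36 in WT-Ctrl, 9.02, 9.34 and 9.49 in Het-Ctrl, and 7.86 and 6.61 in Hom-Ctrl, and 8.53 to 9.53 with N-Myc. As with Mgam, the Hom-Ctrl arrays were the lowest. It was lower in Hom-Ctrl than in WT-Ctrl by 2.49 (SE 0.34, adjusted p = 0.00157, limma) and than in Het-Ctrl by 2.05 (SE 0.34, adjusted p = 0.00643, limma). With Hom-Ctrl replicate 1 left out these differences were -3.11 and -2.67 (adjusted p = 0.000866 and 0.00394, limma). With N-Myc it differed by 0.40 (adjusted p = 0.161, limma) averaged over genotypes, and by 0.61 (adjusted p = 0.0201, limma) without Hom-Ctrl replicate 1. Without WT-Ctrl replicate 3 the difference was 0.50 (adjusted p = 0.0476, limma). By genotype, with all arrays, it was -0.35 in WT (adjusted p = 0.573, limma) and -0.09 in Het (adjusted p = 0.907, limma). In Hom, where the Ctrl arrays were low, it was 1.64 (adjusted p = 0.00627, limma).

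The profiles of the 7 over the 14 arrays fell close together for some and apart for others. The root mean square difference between gene-centred log2 profiles was smallest for Kbtbd8 and Smpd4 (0.29) and for Smpd4 and Thg1l (0.30), and largest for Mgam and Rnase12 (1.34). Over 18408 other named genes, the closest profiles were those of Fastkd2 (0.27) and Utp20 (0.28) for Kbtbd8, Dkc1 (0.18) and Fastkd2 (0.21) for Smpd4, and Dis3 (0.22) and Slc16a1 (0.22) for Thg1l. They were Noa1 (0.24) and Utp20 (0.27) for Neto2, and Wdr12 (0.33) and Smyd5 (0.33) for Nlgn2. Mgam was closest to Il1rl2 (0.32) and Ciart (0.40), and Rnase12 to Mtap (0.35) and Fam174b (0.47). The median over all genes compared lay between 0.98 and 1.22 for the 7. All points share the same arrays and vectors, and these distances are descriptions.

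Il1rl2 and Mtap had Ctrl profiles like those of Mgam and Rnase12. Il1rl2, an interleukin receptor gene, was lower in Hom-Ctrl than in WT-Ctrl by 1.94 (SE 0.26, adjusted p = 0.0013, limma), and read 5.71 and 4.92 in Hom-Ctrl against 7.14, 7.15 and 7.49 in WT-Ctrl. Mtap, which encodes the first enzyme of methionine salvage, was higher in Hom-Ctrl than in WT-Ctrl by 1.57 (SE 0.17, adjusted p = 0.000325, limma), and read 9.88 and 10.14 against 8.45, 8.66 and 8.22. Without Hom-Ctrl replicate 1 the differences were -2.34 for Il1rl2 and 1.70 for Mtap (adjusted p = 0.00151 for both, limma). Both were picked for their likeness, so the likeness of these patterns follows from how they were picked.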

How the data were processed

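The authors deposited log2 values, 1 for each array and probe set. The submitters' processing notes name Affymetrix Expression Console. Software version, probe summary and normalization were each not given in the sources used here. RNA was column-purified and labelled with the WT PLUS kit, per the labels' protocols. Array medians lay between 6.29 and 6.38 and no further scaling was applied, so a shift common to most transcripts cannot be seen. Of 28846 probe sets 6640 were controls, and 22206 were tested. Symbols came from the platform's annotation, and 2634 tested sets had none. The number of arrays limits the precision.

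One mean per group (6 groups) was fitted over the 14 arrays in limma 3.58.1 in R 4.3.3 (lmFit and eBayes, 8 residual and 7.3 prior degrees of freedom), with tests on both sides and Benjamini-Hochberg adjustment over 22206 probe sets. Adjusted p under 0.05 was a call. On simulated data, 99 of 100 differences of 1 log2 unit were recovered for the averaged N-Myc comparison and 77 of 100 for Hom-Ctrl against WT-Ctrl, among 22206 sets. The 7 genes, the 7 lists of relatives and partners (136 entries, 125 measured) and the marker lists were chosen with earlier results of these data known. Named from each list and each set of neighbours were up to 2 rises and 2 falls, the largest among called sets whose NMyc and Ctrl arrays did not overlap. Partners, substrates and closest relatives, Mycn, Myc and the 2 genes most alike in profile were also named, and exceptions are stated.

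Same-numbered samples of different groups did not all deviate together (31 pairs, r from -0.13 to 0.27), so replicate numbers were not used. Sample codes in the labels form 3 runs, which the labels do not call batches. Pairs within a run deviated together somewhat more (28 pairs, median r 0.08, from -0.01 to 0.27). Pairs from different runs did so less (53 pairs, median r -0.07, from -0.19 to 0.16). The main fit had no term for the run. Alternatives covered the replicate and the code run as blocks, normalization, low values, control sets, moderation, single arrays and runs.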

Additional observations from a re-analysis of the deposited data

How the results depend on the processing

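Of 63 genotype comparisons and effect differences of the 7 genes, 58 stayed on the same side of the threshold under all 22 alternatives, of which 14 left out 1 array each. No called difference changed sign. The exceptions were Mgam against Het-Ctrl, Rnase12 against both other Ctrl groups, and Nlgn2 in Hom-Ctrl against both, given above for single arrays and for the runs. Nlgn2 was called against WT-Ctrl with the code run as a block (0.96, adjusted p = 0.034) and with trend and robust moderation (0.99, 0.0313). In code runs 2 and 3 alone, 1 of the 7 genes was called in Hom-Ctrl minus WT-Ctrl and 0 in Hom-Ctrl minus Het-Ctrl, with fewer samples. Leaving out single arrays gave 1 to 3 and 0 to 3 called genes, and 0 in the other comparisons. The median rise of the 7 genes with N-Myc lay between 1.88 and 2.01 averaged, 1.77 and 2.00 in WT, 1.99 and 2.20 in Het, and 1.92 and 2.28 in Hom. In Hom it was 1.81 with the code run as a block, and the cause was not tested. Family calls lay between 58 and 67 of 125 (68 with all arrays) and neighbour calls between 10 and 14 of 42.

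With the replicate number as a block, the averaged median was 2.02, and 64 family genes and 14 neighbours were called. The block changed no call of the 7 genes between genotypes. It moved the rise of Mgam in WT from 0.78 to 0.98 and left that of Rnase12 in Hom at 0.87. The adjusted p (limma) of these 2 rises was under 0.05 with the block and not without it. As the genes were picked for rises with N-Myc, this only describes them. The samples share only a number. Of all probe sets 868 were called in Hom-Ctrl minus WT-Ctrl and 533 in Hom-Ctrl minus Het-Ctrl. These were 442 and 231 with only AFFX control sets left out, 99 and 55 without Hom-Ctrl replicate 2, 472 in the first without WT-Ctrl replicate 3, and in the second 339 without Het-Ctrl replicate 1, 163 without Het-Ctrl replicate 3, 354 in runs 2 and 3 alone and 884 with trend and robust moderation. For Hom minus WT effects, 18 became 0 to 62, and for Hom minus Het, 7 became 0 to 20. With array values raised to the 95th percentile of the negative control sets, rises were 1.98 for Smpd4 and 0.38 to 0.67 for Nlgn2, Neto2, Mgam, Rnase12 and Thg1l, since most of their Ctrl arrays lie under it, which limits how far their folds can be read. Of 27 list genes followed, 25 kept their call, and the others were Clec5a (above) and Smpd1, which fell by 0.35 with quantile normalization (adjusted p = 0.044, limma) and by 0.32 with trend and robust moderation (0.0436). With the wider motif set, 5 of the 7 genes in place of 1 had a match.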
